A study of Mus musculus with 18 samples.

Results

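The mitochondrial ribosomal protein genes of the mouse were examined in fibroblasts in which the histone variant macroH2A2 was switched on. They were taken as all protein-coding genes whose symbol starts with Mrpl or Mrps and a digit, which gave 78 of the 48440 gene IDs counted: 49 Mrpl genes, named for the large subunit, and 29 Mrps genes, named for the small subunit. Of the 78 genes, 77 had enough counts to be tested. The exception was Mrpl53, with 1 count in 1 of 9 libraries.

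Mitochondria translate a small set of respiratory chain proteins from their own genome, on ribosomes whose RNA is mitochondrial and whose proteins are all encoded in the nucleus and imported. Some of these proteins have bacterial counterparts, and others are found only in mitochondrial ribosomes. In structures of mammalian mitochondrial ribosomes the products of Mrps18a and Mrps30 sit in the large subunit, and the product of Mrps36 belongs to the oxoglutarate dehydrogenase complex and not to the ribosome.

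RNA came from SV40-immortalized dermal fibroblasts (iDF) of newborn male mice of the 129/S6 background at passages 20-30. All RNA groups, the uninduced one included, carried the macroH2A1/2 double knockout and a doxycycline-inducible macroH2A2-GFP transgene. Poly(A) RNA was sequenced from 3 biological replicates each at 0h (no treatment), 6h and 24h of 0.5 ug/ml doxycycline. Native ChIP (MNase-digested chromatin without crosslinking, captured by the GFP tag) gave a single library for each of the times 0h, 6h, 24h and 5d (1 per condition). A further library was taken at 24h with 0.5 uM flavopiridol, an inhibitor of the transcription kinase CDK9, over the last 18 h. Libraries at 6h and 24h were also taken after 10 days of 5 uM GSK126, an inhibitor of the histone methyltransferase Ezh2. Per their labels, all these ChIP libraries came from iDF cells with macroH2A2-GFP. All but the 0h library had 0.5 ug/ml doxycycline, those with flavopiridol or GSK126 included. H2A.Z, another H2A variant, was profiled once, in primary neonatal dermal cells that were wild type and female (passages 0-1). There was no arm with doxycycline and no transgene, so effects of the drug and of macroH2A2 cannot be told apart. The labels do not say whether the line is 1 clone.

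RNA libraries held 29338093 to 37793178 counts over genes. H2afy2, the macroH2A2 gene, stood at 9.61 to 25.3 CPM at 0h, 805 to 833 CPM at 6h and 1713 to 1741 CPM at 24h, where CPM is the TMM-scaled count relative to library size. The counts do not separate the transgene from the endogenous gene. H2afy, the macroH2A1 gene, was at 51.5 to 60.6 CPM in the 9 libraries, and the deleted part was not examined here. Of 12 fibroblast markers, 10 had a mean of 1 CPM or more, while summed markers of keratinocytes, endothelium, macrophages, melanocytes and Schwann cells, and adipocytes and muscle each stayed below 13 CPM. The fibroblast sum was 10344 to 10643 CPM at 0h, 9583 to 9846 CPM at 6h and 9839 to 10196 CPM at 24h, and 7 of 10 tested fibroblast markers fell and 1 rose at 6h. The adipocyte and muscle sum was 4.54 to 5.86 CPM at 0h, 12.2 to 12.6 CPM at 6h and 4.14 to 4.36 CPM at 24h. That sum moved with 1 gene, Acta1, a muscle actin (mean 4.77 CPM at 0h, 11.8 CPM at 6h and 3.78 CPM at 24h), while Adipoq, Plin1, Fabp4 and Des stayed below 0.4 CPM and Myod1 was at 0. The part of these shifts in the results below was not tested. The share of reads not counted for a gene was 22.8 to 23.1% at 24h, against 21.2 to 22.1% at 0h. Replicates differed by more than counting noise, with a chi-square per degree of freedom of 2.08 to 3.41 between 0h libraries. At 6h replicate 3 stood apart from replicates 1 and 2 (7.50 and 6.85, against 2.94 between those 2), and at 24h the value was 9.14 between replicates 1 and 3, 4.87 between 1 and 2 and 3.07 between 2 and 3.

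Some motifs, which the choice of genes did not use, were more frequent in promoters of these genes than in those of all protein-coding genes. RefSeq promoter sequences (GRCm38.p6, 250 bases before to 50 after the start) matched 69 of the 78 genes. The motif CCGGAAG, a core bound by ETS family factors such as GABP, occurred on either strand in 26 of 69 promoters (37.7%), against 12.9% of the promoters of all 17492 protein-coding genes. The motif GCATGCGC of NRF1, nuclear respiratory factor 1, occurred in 8 of 69 (11.6%), against 3.94% of all. The motif AAGATGG of YY1 occurred in 13 (18.8%), against 7.18%, and the E-box CACGTG in 5 (7.25%), against 8.91%. At least 1 of the 4 motifs was found in 40 promoters (58.0%), against 28.3% of all, while median GC content was close, 58.0% against 56.3%. Different motifs of the first 3 overlapped in 0 cases, and 3 pairs of NRF1 matches were overlapping readings of the 2 strands. Of the 31 ETS matches, 22 lay before the start and 19 of these within 100 bases of it, while 9 of the 15 YY1 matches lay after the start. A motif match describes letters and does not show binding. Promoters of expressed genes alone were not compared, either for the motifs or for the neighbouring genes described below.

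The matches in the promoters of the genes with the largest called increases at 6h are shown in 30-base windows on the gene's own strand, 5′ to 3′, with the motif in capitals (RefSeq, GRCm38.p6). They show that the same core stands in genes of both subunits, and that some promoters hold more than 1 motif. The first 6 lines hold the ETS motif, the next 3 the NRF1 motif and the last 3 the YY1 motif. The YY1 match of Mrpl32 lies 241 bases before its start, past the start of its neighbour Psma2 at 205 bases. That of Mrps12 lies 198 bases before its start, past the start of Sars2 at 147 bases. Both read AAGATGG on the strand of the neighbour, so to which gene they belong is not known.
Mrps21 (chr3:95871478-95871507, minus strand): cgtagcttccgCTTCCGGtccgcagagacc
Mrpl22 (chr11:58171600-58171629, plus strand): cttttccggtcCCGGAAGccggcctcggac
Mrps18b (chr17:35916391-35916420, minus strand): tgtcccgagcatgcgcagtcgctCTTCCGG
Mrps18a (chr17:46110967-46110996, plus strand): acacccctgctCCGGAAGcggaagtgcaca
Mrps22 (chr9:98601672-98601701, minus strand): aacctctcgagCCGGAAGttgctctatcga
Mrps12 (chr7:28741802-28741831, minus strand): aaggaggaaccCCGGAAGgggctggaggta
Mrpl32 (chr13:14613041-14613070, minus strand): gcggacttaacGCATGCGCtcagcccgcgt
Mrpl22 (chr11:58171620-58171649, plus strand): ggcctcggactGCGCATGCgtatagtcagc
Mrps18b (chr17:35916394-35916423, minus strand): gcgtgtcccgaGCATGCGCagtcgctcttc
Mrpl32 (chr13:14613258-14613287, minus strand): cgcgctctgCCATCTTtacccggaaagtcg
Mrps18a (chr17:46111004-46111033, plus strand): aggtgcgttccAAGATGGcggccctcaggg
Mrps12 (chr7:28742001-28742030, minus strand): catggacgcagCCATCTTggagtggaaaca

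For 2 genes the 250 bases before the start are given whole, ending at the start. Mrpl22 had the largest 6h increase among the 3 genes with both an ETS and an NRF1 match before the start (Mrpl17, Mrpl22 and Mrpl33). Mrps6 had the largest called decrease, and its 250 bases hold none of the first 3 motifs. Capitals mark the motifs, and the start is that of the promoter table, which for Mrpl22 lies inside the annotated gene span. GC content was 48.0% for Mrpl22 and 74.4% for Mrps6.
Mrpl22 (chr11:58171414-58171663, plus strand): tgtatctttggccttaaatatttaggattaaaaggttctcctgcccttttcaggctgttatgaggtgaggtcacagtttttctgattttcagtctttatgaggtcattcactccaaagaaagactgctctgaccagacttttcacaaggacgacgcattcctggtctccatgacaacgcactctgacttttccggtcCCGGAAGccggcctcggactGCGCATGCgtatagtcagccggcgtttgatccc
Mrps6 (chr16:92058086-92058335, plus strand): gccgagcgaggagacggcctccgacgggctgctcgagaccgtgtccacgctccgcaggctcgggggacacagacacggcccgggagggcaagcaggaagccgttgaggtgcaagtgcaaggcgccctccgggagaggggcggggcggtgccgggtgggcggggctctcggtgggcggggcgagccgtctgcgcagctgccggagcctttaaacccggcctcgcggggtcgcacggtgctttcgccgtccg

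Many of these genes also start back to back with a neighbour. Another gene began on the opposite strand within 1000 bases before the start for 26 of 69 genes (37.7%), against 2302 of 17492 protein-coding genes (13.2%). In 1 pair both partners encode mitochondrial ribosomal proteins, with the starts of Mrpl46 and Mrps11 42 bases apart. Other partners have mitochondrial roles: Twnk, the mitochondrial DNA helicase, lies 116 bases from Mrpl43, Ndufb5, a complex I subunit, 308 bases from Mrpl47, Sars2, the mitochondrial seryl-tRNA synthetase, 147 bases from Mrps12, and Ptcd2 108 bases from Mrps27. Further partners included Tcp1, a subunit of the cytosolic chaperonin, 238 bases from Mrpl18, Psma2, a proteasome subunit, 205 bases from Mrpl32, and Hira, a histone chaperone, 113 bases from Mrpl40.

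**Figure D1:**
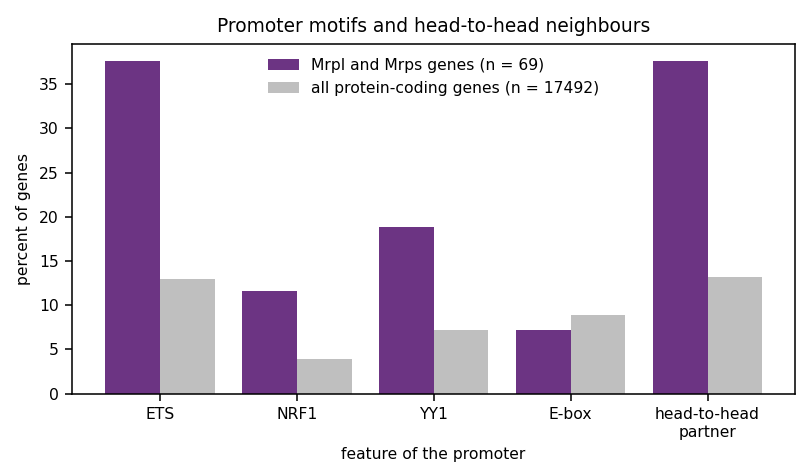
Percent of genes whose promoter holds each motif on either strand, or whose start has a neighbour on the opposite strand within 1000 bases, for the 69 Mrpl and Mrps genes with a promoter sequence and for all 17492 protein-coding genes. The ETS, NRF1 and YY1 bars and the neighbour bars are higher for the Mrpl and Mrps genes (37.7, 11.6, 18.8 and 37.7%) than for all genes (12.9, 3.94, 7.18 and 13.2%).

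After 6h of doxycycline most of these genes were higher, by small amounts. Relative to 0h, 49 of the 77 tested genes rose and 3 fell at an adjusted p below 0.05 (edgeR quasi-likelihood test, Benjamini-Hochberg over 13785 genes), while 25 did not pass. Without 6h replicate 3, the library that stood apart, 39 rose and 3 fell. Over all genes tested, 20.8% rose and 18.2% fell. The median log2 change was 0.14 over the 77 genes and 0.0067 over all genes, and the called increases ran from 1.06-fold to 1.29-fold. In 53 genes all 3 libraries at 6h lay above all 3 at 0h, a pattern that 25.3% of all genes tested showed. Summed over the 78 genes, RNA stood at 3455 ± 29.0 CPM at 6h and 3169 ± 24.2 CPM at 0h (SD, n = 3 each), 9.01% more at 6h. These are RNA levels in bulk cultures, where a shift in cell make-up and a change of RNA per cell cannot be told apart.

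Both subunits took part. Of 48 tested Mrpl genes 30 rose and 1 fell, with a median log2 change of 0.13, and of 29 Mrps genes 19 rose and 2 fell, with a median of 0.15. Of the large-subunit proteins with a bacterial counterpart 20 of 30 rose and 1 fell, and of those specific to mitochondria 10 of 18 rose and 0 fell (0 also unadjusted and by DESeq2). Among Mrps genes, 10 of 16 with a bacterial counterpart rose (6 by DESeq2) and 1 fell, and 9 of 13 that are specific to mitochondria or whose product lies elsewhere rose and 1 fell (0 by DESeq2). Of the 26 genes with an ETS motif 25 were tested, and 15 of these rose and 0 fell (0 also at an unadjusted p below 0.05 and by DESeq2), against 29 that rose and 2 that fell of 43 without one. Genes with a head-to-head partner rose in 16 of 26 cases and all other tested genes in 33 of 51. The latter include the genes without a promoter sequence, for which a partner could not be looked for. The partners outside the family rose in 6 (27.3%) and fell in 2 (9.09%) of 22 tested cases. Over all genes tested, 20.8% rose and 18.2% fell, so the partners were nearer to that share than the family was.

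**Figure D2:**
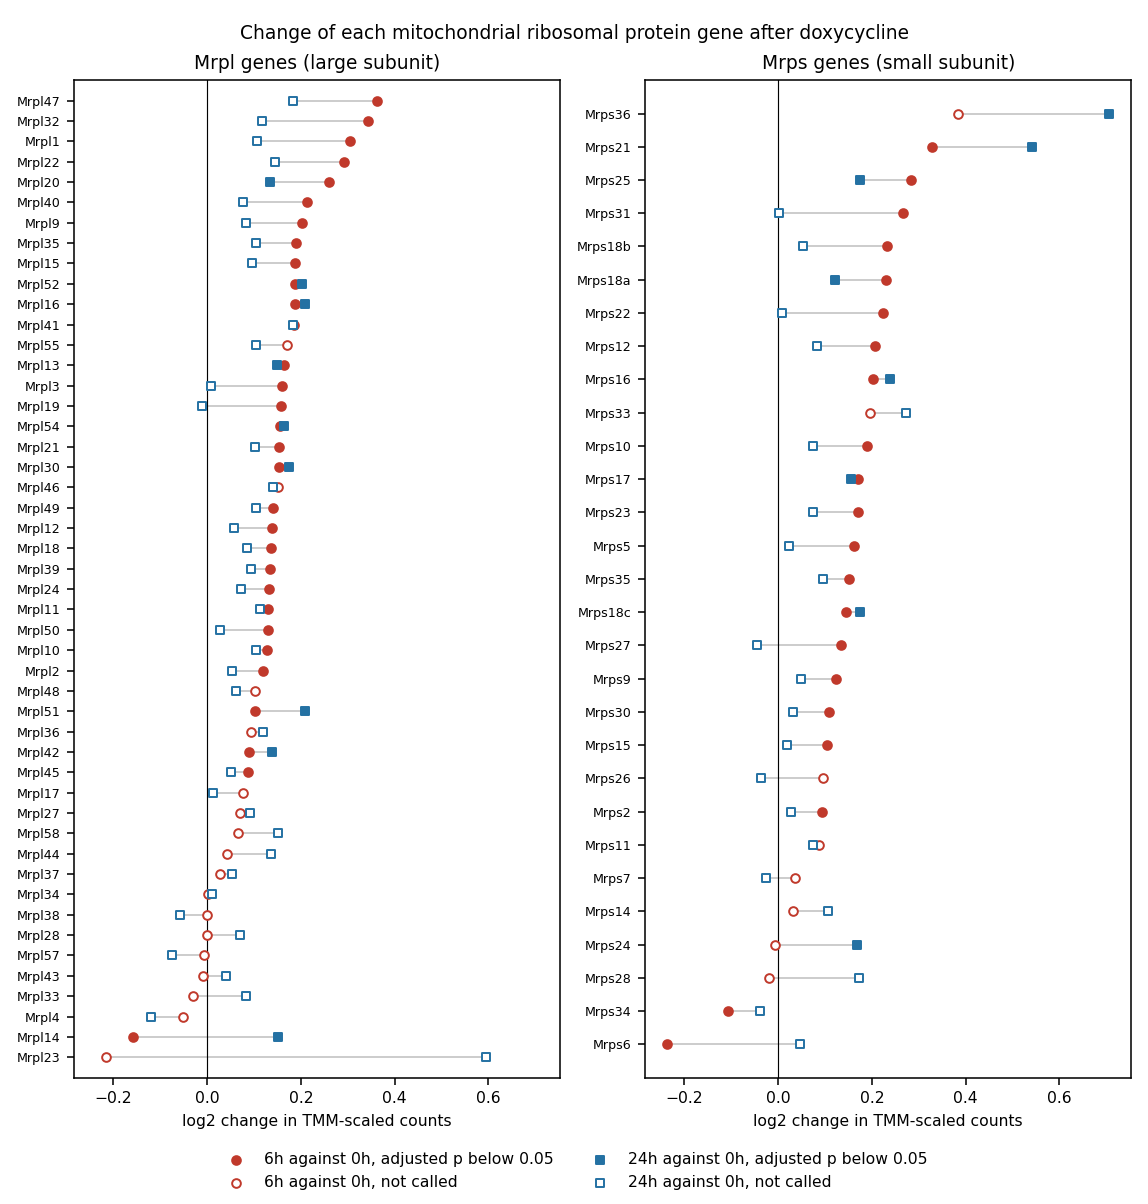
Log2 change of each tested Mrpl gene (left) and Mrps gene (right) at 6h (circles) and at 24h (squares) against 0h, from the edgeR fit with 3 libraries per time. Filled symbols passed an adjusted p of 0.05. Most circles lie right of 0, with 49 filled on that side and 3 on the other, and 17 squares are filled, all right of 0.

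Among Mrpl genes, Mrpl47 and Mrpl32 rose most at 6h. Mrpl47 (ENSMUSG00000037531, chr3:32727497-32736755) encodes a protein near the exit of the nascent chain and stood at 23.5, 21.4 and 23.9 CPM at 6h, against 16.9, 17.1 and 19.5 CPM at 0h. The log2 difference came to 0.36 (SE 0.062, adjusted p = 2.9e-05). The lowest 6h library lay above the highest 0h library. Mrpl32 (ENSMUSG00000015672, chr13:14610301-14613037), whose product is matured by the m-AAA protease of the inner membrane, stood at 39.2, 44.1 and 39.6 CPM at 6h, against 32.5, 32.5 and 31.9 CPM at 0h, a log2 change of 0.34 (SE 0.048, adjusted p = 1.3e-06). Its partner Psma2 rose by 0.09 and the Mrpl47 partner Ndufb5 by 0.14 on the same scale. Mrpl1, a protein of the stalk near the tRNA exit site, changed by 0.30, and Mrpl22, part of the wall of the exit tunnel, by 0.29 at 37.4, 36.7 and 38.1 CPM at 6h, against 31.1, 29.6 and 31.0 CPM at 0h. The 6h and 0h libraries did not overlap in either gene.

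Mrpl20 had the smallest adjusted p of the family at 6h. It stood at 109, 104 and 103 CPM at 6h, against 82.9, 89.6 and 91.4 CPM at 0h, a log2 change of 0.26 (SE 0.035, adjusted p = 9.1e-07). The next Mrpl genes by size of increase were Mrpl40, Mrpl9, Mrpl35, Mrpl15 and Mrpl52, at log2 changes of 0.21 to 0.19. Among these, Mrpl40 is specific to mitochondria and shares its promoter region with Hira, which was at 22.4 to 22.6 CPM at 6h, against 22.6 to 22.8 CPM at 0h (log2 change -0.01, adjusted p = 0.88).

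Among Mrps genes, Mrps21 (ENSMUSG00000054312, chr3:95862634-95871514) rose most. It stood at 16.4, 15.7 and 17.8 CPM at 6h, against 11.9, 12.5 and 15.3 CPM at 0h, a log2 change of 0.33 (SE 0.077, adjusted p = 0.0010). The gap between the groups was narrow, since the highest 0h library was close to the lowest 6h library. Mrps25, specific to mitochondria, stood at 47.3, 45.7 and 44.6 CPM at 6h, against 37.3, 38.9 and 36.9 CPM at 0h, a log2 change of 0.28 (SE 0.040, adjusted p = 2.0e-06). Mrps31 stood at 40.5, 42.8 and 40.3 CPM at 6h, against 34.7, 34.6 and 33.5 CPM at 0h, a log2 change of 0.27 (SE 0.042, adjusted p = 8.2e-06). Both had 6h libraries well above those at 0h. Mrps22, Mrps16, Mrps10 and Mrps17 changed by 0.22, 0.20, 0.19 and 0.17. Mrps12, a protein of the decoding site, changed by 0.21 (adjusted p = 0.015), but was not called without 0h replicate 2 (0.14, adjusted p = 0.13) or without 6h replicate 3 (0.19, adjusted p = 0.059).

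The 3 Mrps18 genes encode related proteins of different position. Mrps18a, in the large subunit, stood at 64.5, 63.7 and 65.5 CPM at 6h, against 52.4, 55.3 and 57.5 CPM at 0h (log2 change 0.23, SE 0.035, adjusted p = 6.5e-06). Mrps18b stood at 51.9, 54.1 and 55.3 CPM at 6h, against 42.5, 47.8 and 46.9 CPM at 0h (0.23, SE 0.042, adjusted p = 5.0e-05). Mrps18c stood at 29.9, 29.9 and 28.5 CPM at 6h, against 28.3, 25.1 and 26.4 CPM at 0h (0.15, SE 0.048, adjusted p = 0.016). In all 3 genes the groups were apart, narrowly so for Mrps18c, whose call was lost without 0h replicate 2 (0.11, adjusted p = 0.12), 6h replicate 1 (0.13, 0.060) or 6h replicate 2 (0.13, 0.055), and by DESeq2 (0.14, 0.060). Mrps30 changed by 0.11 (adjusted p = 0.022) and was not called without 0h replicate 1 (0.085, adjusted p = 0.11), 6h replicate 1 (0.093, 0.095) or 6h replicate 3 (0.093, 0.095), by DESeq2 (0.10, 0.082) or with no filter on low counts (0.11, 0.051). Mrps36, the gene whose product lies outside the ribosome, was at 1.34 to 2.17 CPM at 6h, against 1.14 to 1.88 CPM at 0h, and was not called (0.38, SE 0.23, adjusted p = 0.20), though it passed without 0h replicate 3 (0.64, adjusted p = 0.047).

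Decreases at 6h were few: Mrps6, Mrpl14 and Mrps34. Mrps6 (ENSMUSG00000039680, chr16:92058336-92112227) stood at 79.9, 80.1 and 78.9 CPM at 6h, against 91.6, 95.6 and 94.4 CPM at 0h, a log2 change of -0.24 (SE 0.034, adjusted p = 2.1e-06). The 6h libraries lay together below those at 0h. The span of Slc5a3, a myo-inositol transporter gene, shares 29138 bases with that of Mrps6 on the same strand, and both start at the same promoter region. Slc5a3 stood at 156, 159 and 168 CPM at 6h, against 229, 226 and 228 CPM at 0h (log2 change -0.50, SE 0.031, adjusted p = 2.7e-13). How reads were divided between these 2 genes was not tested, so the decrease of Mrps6 is uncertain as that of a separate gene.

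Mrpl14 (ENSMUSG00000023939, chr17:45685722-45698495), a protein of the subunit interface, stood at 27.8, 28.2 and 27.1 CPM at 6h, against 31.6, 31.1 and 30.0 CPM at 0h (log2 change -0.16, SE 0.045, adjusted p = 0.0054), with no overlap between the libraries. Its neighbour Tmem63b, which shares 622 bases with it, was at 113 to 114 CPM at 6h, against 111 to 119 CPM at 0h. Mrps34 changed by -0.11 (adjusted p = 0.048). Its counts in the unstranded column were 10.6% of those in the strand column, the lowest share of the family, and 7 genes had under 80%. The Mrps34 call was lost on leaving out any 1 of 0h replicates 1, 2 and 3 (adjusted p = 0.11, 0.075 and 0.100), of 6h replicates 1 and 2 (0.11 and 0.16) or 24h replicate 3 (0.051). It was also lost by DESeq2 (0.099), with no filter on low counts (0.092) and with unstranded counts (0.52).

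**Figure D3:**
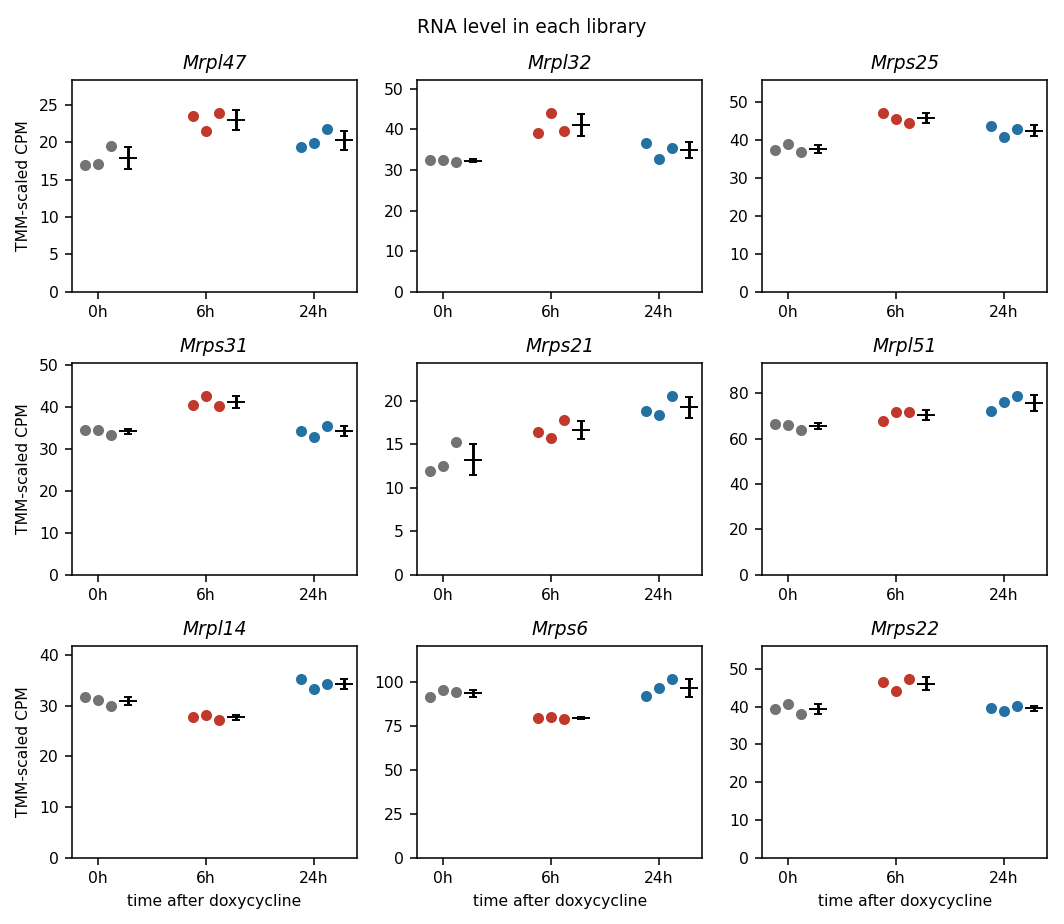
TMM-scaled CPM of 9 Mrpl and Mrps genes in each of the 3 libraries at 0h, 6h and 24h (points), with the mean and SD beside them (bars). Mrpl47, Mrpl32, Mrps25, Mrps31 and Mrps22 are highest at 6h, Mrps21 and Mrpl51 are highest at 24h, and Mrpl14 and Mrps6 are lowest at 6h.

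The 5 mitochondrial ribosomal proteins with other symbols were looked at beside the family. Chchd1 changed by 0.16 (adjusted p = 0.0039), Ptcd3 by 0.13 (adjusted p = 8.5e-04) and Gadd45gip1 by 0.15 (adjusted p = 0.0015) at 6h. Gadd45gip1 was not called with unstranded counts (0.12, adjusted p = 0.14). Dap3 (-0.01) and Aurkaip1 (0.02), both of the small subunit, were not called at 6h.

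Other genes of mitochondrial translation were counted from lists of their own. Of 12 translation factors 7 rose and 0 fell at 6h (0 fell also unadjusted and by DESeq2; median log2 change 0.16), among them Gfm1, elongation factor G of mitochondria (0.24, adjusted p = 1.0e-05), and Mtrf1, a release factor (0.52, adjusted p = 0.0026). Of 30 genes of ribosome assembly and RNA handling 15 rose and 0 fell (1 unadjusted and 0 by DESeq2; median 0.15). C1qbp, a matrix protein needed for mitochondrial translation, stood at 250, 244 and 249 CPM at 6h, against 212, 212 and 207 CPM at 0h. Lrpprc and Slirp, which together protect mitochondrial mRNAs, changed by 0.16 and 0.32. Of 17 mitochondrial aminoacyl-tRNA synthetases 5 rose (29.4%) and 2 fell (11.8%), nearer to the 20.8% and 18.2% of all genes tested. Of 13 transcription factors and regulators 4 rose (30.8%) and 2 fell (15.4%), also nearer to those shares. Tfam was among those that rose (0.20, adjusted p = 9.5e-06). Those that fell were Ppargc1a (-0.55, adjusted p = 0.010) and Yy1 (-0.09, adjusted p = 0.012). Nrf1 (0.01) and Gabpa (0.02), whose products bind motifs named above, were not called.

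Ribosomal proteins of the cytosol moved the same way. Of 77 such genes 57 rose and 1 fell at 6h, with a median log2 change of 0.14, and their summed RNA was 8.95% higher at 6h. The 2 families were not tested against each other.

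At 24h fewer of the genes differed from 0h. Of 77 tested, 17 rose and 0 fell, with 4.17% of all genes called higher and 2.87% called lower. The median log2 change was 0.09 over the family and -0.0017 over all genes. At an unadjusted p below 0.05, 42 were higher and 1 lower, and DESeq2 called 0 lower as well. Those called were 9 of 48 Mrpl and 8 of 29 Mrps genes (5 Mrps genes by DESeq2), and this comparison uses the same 0h libraries as that at 6h. Leaving out 0h replicate 2 or 24h replicate 3 gave 10 increases in each case, and leaving out 24h replicate 1 gave 21. Summed RNA of the 78 genes was 3362 ± 70.5 CPM at 24h and 3169 ± 24.2 CPM at 0h (SD, n = 3 each), 6.09% more at 24h.

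Mrps21 had the lowest adjusted p at 24h, at 18.8, 18.4 and 20.6 CPM, against 11.9, 12.5 and 15.3 CPM at 0h (log2 change 0.54, SE 0.075, adjusted p = 1.3e-05). Every 24h library exceeded every 0h and every 6h library. Mrpl51, specific to mitochondria, stood at 72.0, 76.3 and 79.0 CPM at 24h, against 66.4, 66.1 and 63.9 CPM at 0h (0.21, SE 0.036, adjusted p = 2.5e-04). Its partner Ncapd2, a condensin subunit, was at 313, 315 and 312 CPM at 24h, against 322, 324 and 327 CPM at 0h, and was not called at 24h (-0.05, adjusted p = 0.26), while it fell by 0.27 at 6h (adjusted p = 4.5e-10). Mrps16 changed by 0.24, Mrpl16 by 0.21, Mrps25 by 0.17, Mrpl54 by 0.16, Mrps17 by 0.16 and Mrpl13 by 0.15. These 8 genes kept their call at 24h under each of the alternatives tried.

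For the other 9 genes the call at 24h was lost in at least 1 alternative. Mrpl52 (0.20) was not called without 0h replicate 1 (0.16, adjusted p = 0.053), and Mrpl30 (0.18) not without 0h replicate 2 (0.13, 0.086). Mrpl20 (0.13) was not called without 0h replicate 1 (0.092, adjusted p = 0.16) or 24h replicate 3 (0.10, 0.11). Mrpl42 (0.14) and Mrps24 (0.17) were lost without 0h replicate 1 (adjusted p = 0.070 and 0.067), 0h replicate 2 (0.10 and 0.090) or 24h replicate 3 (0.13 and 0.085). Mrpl14 (0.15) was lost without 0h replicate 2 (adjusted p = 0.080), 0h replicate 3 (0.11), 24h replicate 1 (0.11) or 24h replicate 3 (0.068), and by DESeq2 (0.098). Mrps18c (0.17) was lost without 0h replicate 2 (0.17), 0h replicate 3 (0.061), 24h replicate 2 (0.064) or 24h replicate 3 (0.071), and by DESeq2 (0.066). Mrps18a (0.12) was lost without 0h replicate 1 (adjusted p = 0.22) or 2 (0.10), or any 1 of 24h replicates 1, 2 and 3 (0.058, 0.059 and 0.11), and by DESeq2 (0.090).

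Mrps36 showed the largest fitted change at 24h on the fewest counts. It had 72, 56 and 102 counts at 24h, against 40, 40 and 63 counts at 0h, or 1.95, 1.91 and 3.03 CPM against 1.14, 1.21 and 1.88 CPM (log2 change 0.71, SE 0.22, adjusted p = 0.048). The groups nearly met, and the call was lost without 0h replicate 1 (adjusted p = 0.21), 0h replicate 2 (0.20), 6h replicate 1 (0.053), 6h replicate 3 (0.056) or 24h replicate 3 (0.34), and with only the libraries of both times fitted (0.0503). Of the genes outside the naming scheme, Chchd1 rose by 0.21 at 24h (adjusted p = 0.0017). In the other lists, 0 of 12 translation factors rose at 24h (0 unadjusted and by DESeq2), 1 of 30 assembly genes did (Slirp, 0.37) and 1 of 17 synthetases. That synthetase was Lars2, at 216, 358 and 389 CPM at 24h, against 213, 236 and 212 CPM at 0h, with overlapping libraries. Over all genes tested 4.17% were called higher at 24h. The cytosolic ribosomal proteins had 61 of 77 called higher and a median of 0.20, with a summed level 13.2% above 0h.

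From 6h to 24h the family moved down more often than up. Of 77 genes, 8 rose and 20 fell, against 17.4% and 18.8% of all genes, and the median log2 change was -0.05. This comparison shares its 6h libraries with that of 6h against 0h. Among Mrpl genes 4 rose and 11 fell, and among Mrps genes 4 rose and 9 fell. Of the Mrps genes that are specific to mitochondria or whose product lies elsewhere, 7 of 13 fell (4 by DESeq2) and 0 rose (0 also unadjusted and by DESeq2). Leaving out 6h replicate 1 or 6h replicate 2 gave 5 increases in each case, and leaving out 24h replicate 3 gave 4. The decreases numbered 13 on leaving out 24h replicate 1 and 13 on leaving out 24h replicate 2. Without 6h replicate 3, 7 genes rose and 15 fell.

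The largest declines were those of Mrps31, Mrpl32 and Mrps22, whose changes at 6h against 0h were 0.27, 0.34 and 0.22. Mrps31 (ENSMUSG00000031533, chr8:22410449-22429669) stood at 34.3, 33.0 and 35.5 CPM at 24h, against 40.5, 42.8 and 40.3 CPM at 6h, a log2 change of -0.26 (SE 0.042, adjusted p = 1.2e-05). Its 24h libraries lay below those of 6h and overlapped those of 0h. Mrps22 stood at 39.5, 39.0 and 40.3 CPM at 24h, against 46.5, 44.1 and 47.5 CPM at 6h (-0.22, SE 0.040, adjusted p = 9.2e-05). Mrpl32 changed by -0.23, Mrpl1 by -0.20, Mrps27 and Mrps18b each by -0.18, Mrpl19 by -0.17, Mrpl3 by -0.15 and Mrps5 by -0.14. Mrps5 was not called without 24h replicate 2 (-0.11, adjusted p = 0.053). Mrpl22 (-0.15) was not called without 6h replicate 3 (-0.13, adjusted p = 0.079) or 24h replicate 1 (-0.081, 0.21). Mrps18a (-0.11) was not called without 6h replicate 3 (-0.090, adjusted p = 0.090) or 24h replicate 2 (-0.090, 0.091), nor by DESeq2 (-0.11, 0.052).

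Increases from 6h to 24h included Mrps6 and Mrpl14. Mrps6 stood at 92.0, 96.7 and 102 CPM at 24h, against 79.9, 80.1 and 78.9 CPM at 6h (log2 change 0.28, SE 0.034, adjusted p = 1.3e-07), and Slc5a3 changed by 0.55. Mrpl14 stood at 35.3, 33.3 and 34.2 CPM at 24h, against 27.8, 28.2 and 27.1 CPM at 6h (0.31, SE 0.044, adjusted p = 2.3e-06). Both genes had no overlap between the times. Mrps24, which lies at the mRNA entry, stood at 41.5, 39.8 and 42.4 CPM at 24h, against 38.3, 33.7 and 37.5 CPM at 6h (0.18, SE 0.045, adjusted p = 0.0027). Mrpl23, of the exit tunnel, had 116, 80 and 81 counts at 24h, against 49, 47 and 61 counts at 6h (0.81, SE 0.22, adjusted p = 0.0049). Its 0h libraries had 53, 39 and 94 counts, so 0h overlapped both later times. A pseudogene, Mrpl23-ps1, had at most 5 counts in any library.

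The other named increases to 24h lost their call without single libraries. Mrps21 (0.21) was not called without 6h replicate 1 (0.20, adjusted p = 0.072), 6h replicate 2 (0.17, 0.10) or 24h replicate 3 (0.16, 0.11). Mrpl51 (0.11) was not called without 6h replicate 1 (0.079, adjusted p = 0.14) or 24h replicate 3 (0.076, 0.12). Mrpl33 (0.11) was not called without 6h replicate 2 (adjusted p = 0.088), 6h replicate 3 (0.084), 24h replicate 1 (0.095) or 24h replicate 3 (0.086), nor by DESeq2 (0.061). Over the same interval 32 of 77 cytosolic ribosomal protein genes rose and 2 fell. In the assembly list 0 of 30 rose and 11 fell, and of the translation factors 0 of 12 rose and 4 fell, 2 by DESeq2 (0 rose in both also unadjusted and by DESeq2). C1qbp stood at 207, 212 and 215 CPM at 24h, against 250, 244 and 249 CPM at 6h (-0.23, adjusted p = 3.2e-08).

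Regions enriched for macroH2A2-GFP were compared with the gene bodies. The authors' broad regions came from 1 library per condition and their read depth is unknown, so all values that follow are descriptions without a test. Body coverage is the percent of the bases between a gene's RefSeq start and end (GRCm38.p6) that lie inside regions. Median body length was 7.69 kb for the 78 genes and 17.2 kb for all 21887 protein-coding genes examined. The part of gene length in the shares below, those of any covered base included, was not tested. The length of the expressed genes used below was not examined. Regions covered 201 Mb at 0h, 383 Mb at 6h, 363 Mb at 24h and 351 Mb at 5d.

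Coverage of the family appeared at 6h and was nearly gone later. At least 50% of the body was covered in 0 of 78 genes at 0h, 12 at 6h (15.4%), 1 at 24h (1.28%) and 0 at 5d. Among all protein-coding genes the shares were 3.33% at 0h, 11.1% at 6h, 8.68% at 24h and 6.58% at 5d. A comparison with the 8611 protein-coding genes of 10 CPM or more at 0h was chosen after the values were seen, since 72 of the 78 genes reach that level. In those expressed genes the shares were 0.302% at 0h, 14.4% at 6h, 0.917% at 24h and 0.430% at 5d, close to the family. At 5d 0 of 78 genes had any covered base, against 23.1% of all protein-coding genes and 8.90% of the expressed ones. That 0 depends on the calling: in the authors' other 5d list, with a window of 1000 bases and a gap of 4000, Mrpl17 had 30.4%, Mrpl4 23.0% and Mrpl45 0.513% covered.

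The genes covered at 6h included members of both subunits. The highest coverage was 94.3% in Mrps10, inside 1 region of 12.6 kb (chr17:47369601-47382199), and 94.0% in Mrpl18, inside a region of 13.4 kb (chr17:12904001-12917399) that also touched Pnldc1 and Tcp1. Mrps18c followed at 88.8%, Mrpl14 at 86.9%, Mrpl33 at 85.6%, Mrpl13 at 84.0% and Mrpl45, the membrane anchor of the ribosome, at 81.8%. The regions over Mrpl14 and Mrpl13 were 29.2 and 30.4 kb long. Mrpl16, Mrpl41, Mrpl17, Mrps31 and Mrps18b lay at 70.4, 65.8, 63.2, 57.3 and 56.4%, and just below the threshold stood Mrps15 at 48.8% and Mrpl10 at 47.3%. A further 15 genes had 2.41 to 38.8% covered, Mrpl4 the most, and 49 of 78 genes had no covered base at 6h, Mrps6, Mrpl47, Mrpl32 and Mrps21 among them. Any covered base at 6h was found in 37.2% of the family, against 45.5% of all protein-coding genes and 59.7% of the expressed ones.

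From 0h to 6h coverage was 50 percentage points or more higher in 12 of the 78 genes (15.4%), against 7.44% of all protein-coding genes and 13.2% of the expressed ones. From 6h to 24h it was 50 points or more lower in 10, against 5.99% of all and 12.2% of the expressed ones. These were the 12 covered genes without Mrpl33 and Mrpl17. At 24h Mrpl33 had 58.0%, inside a region of 8.80 kb (chr5:31617601-31626399), Mrps23 32.2%, Mrpl17 30.4%, Mrpl4 15.1%, Mrpl48 4.16%, and Mrps31 and Mrpl45 under 1%. The remaining 71 of 78 had none. In the uninduced 0h library Mrpl4 also had 15.1%, Mrps31 0.786% and Mrpl45 4.51%, so these were no higher at 24h than at 0h. Mrpl33, Mrps23, Mrpl17 and Mrpl48 had 0% at 0h. Any covered base at 24h was found in 8.97% of the family, against 27.2% of all protein-coding genes and 15.2% of the expressed ones. Among the 12 genes covered at 6h, 9 rose and 1 fell in RNA at 6h, against 40 that rose and 2 that fell of the 65 other tested genes.

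**Figure D4:**
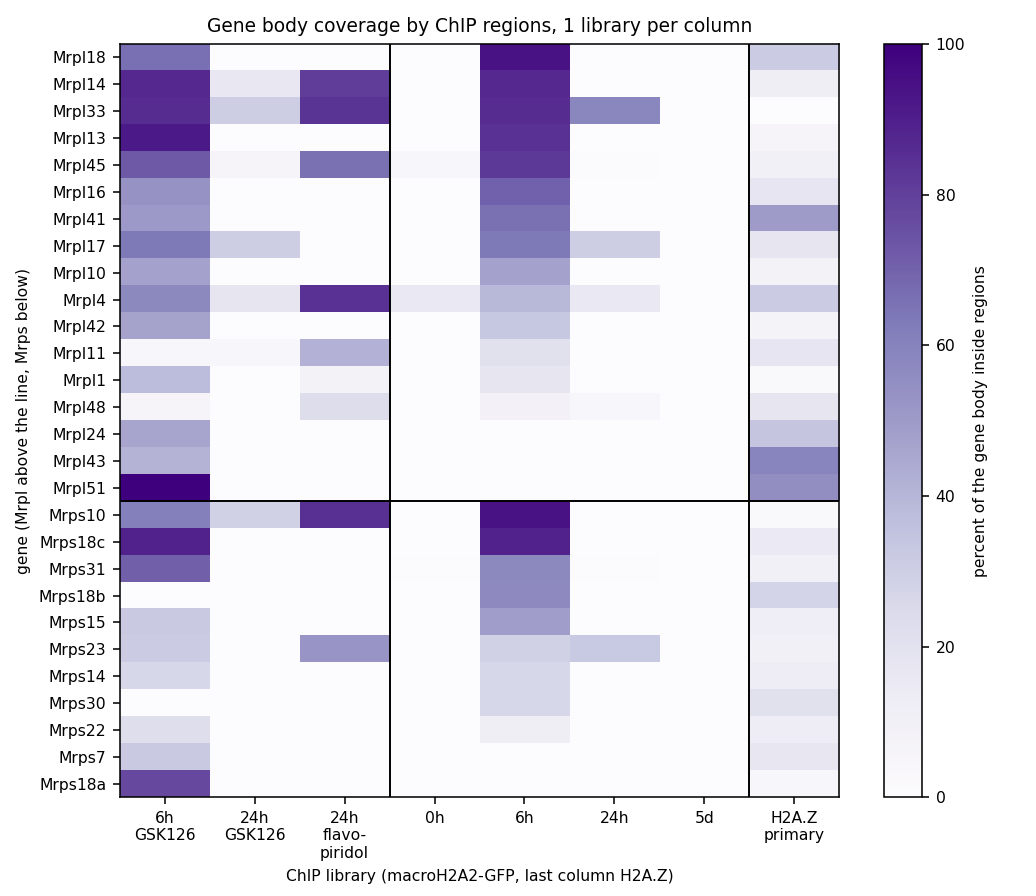
Percent of each gene body inside regions, 1 ChIP library per column, for the 28 Mrpl and Mrps genes with 20% or more in at least 1 macroH2A2-GFP library. Colour is dark at 6h and at 6h after GSK126 (12 and 14 genes at 50% or more), in 6 genes with flavopiridol, and nearly absent at 0h, 24h, 5d and 24h after GSK126.

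With flavopiridol, 6 of 78 genes had at least 50% of the body covered at 24h (7.69%), against 1 at 24h without it. Among all protein-coding genes the share with flavopiridol was 11.8%, and among the expressed genes 6.84%. The 6 were Mrps10 (84.7% with flavopiridol, 0% without), Mrpl4 (84.2%, 15.1%), Mrpl33 (83.3%, 58.0%), Mrpl14 (80.6%, 0%), Mrpl45 (65.8%, 0.513%) and Mrps23 (52.3%, 32.2%). A gain of 50 points or more was seen in 4 of them, Mrps10, Mrpl4, Mrpl14 and Mrpl45, against 3.13% of all protein-coding genes and 4.36% of the expressed ones. The genes covered at 6h and with flavopiridol numbered 4, while Mrpl18, Mrpl13 and Mrps18c, above 80% at 6h, had 0% with flavopiridol.

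After GSK126, 14 genes (17.9%) were covered to 50% or more at 6h, against 12.3% of all protein-coding genes and 19.0% of the expressed ones, and 11 of the 14 were also covered at 6h without the inhibitor. Coverage was 50 points or more higher after GSK126 in Mrpl51 (100% after GSK126, 0% without) and Mrps18a (77.1%, 0%), 2 of 78 genes, against 1.17% of all and 1.46% of the expressed ones. It was 50 points or more lower in Mrps18b (0% after GSK126, 56.4% without), 1 gene, against 0.836% of all and 0.639% of the expressed ones. At 24h after GSK126 0 of 78 genes reached 50%, against 5.9% of all and 0.639% of the expressed ones, and the highest values were 30.4% in Mrpl33 and Mrpl17 and 28.7% in Mrps10.

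Starts were read apart from bodies, as windows of 1 kb to each side. For the 69 genes with a known start, the window touched a region in 4.35% at 0h, 24.6% at 6h, 13.0% at 24h and 4.35% at 5d. The shares of all protein-coding genes were 10.1, 27.5, 21.3 and 16.0% in the same order, and those of the expressed genes 7.97, 37.0, 19.1 and 10.7%. In each of these 4 libraries the family stood below both. With flavopiridol the window was touched in 14.5% of the family, 25.6% of all genes and 28.8% of the expressed ones. At 6h after GSK126 the shares were 31.9% of the family, 29.2% of all genes and 38.4% of the expressed ones, and at 24h after GSK126 10.1, 17.9 and 16.5%.

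H2A.Z lay at nearly every start. In the primary fibroblasts 67 of 69 start windows (97.1%) touched an H2A.Z region, against 59.7% of all protein-coding genes and 93.8% of those expressed in the immortalized line. In bodies, 76 of 78 genes had some coverage and the median was 15.8%, while 9 genes (11.5%) reached 50%, against 4.69% of all and 2.37% of those expressed in the immortalized line. These were mostly short genes such as Mrpl53 (83.9%, 0.825 kb), Mrpl34 (81.4%, 0.828 kb) and Mrps26 (75.9%, 1.64 kb). The 2 genes without an H2A.Z region over the body were Mrpl33 and Mrpl55. The cells differ from the immortalized line in genotype, sex and passage.

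**Figure D5:**
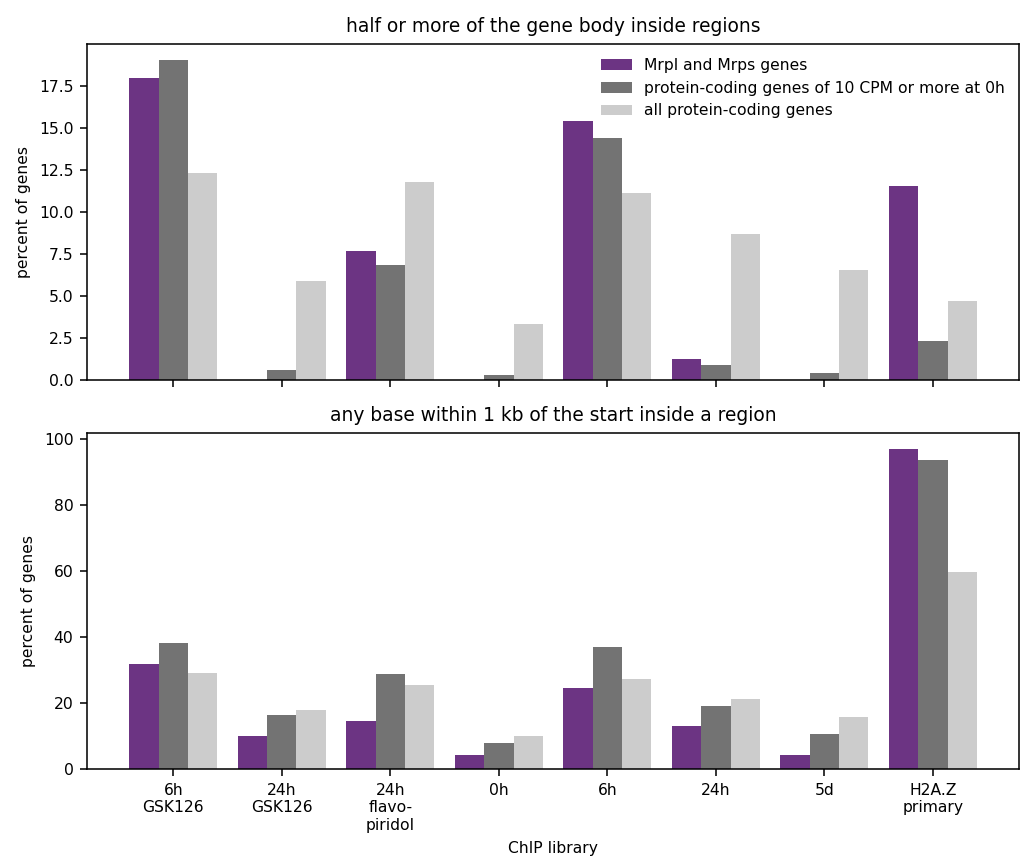
Percent of genes with at least 50% of the body inside regions (top) and with any base within 1 kb of the start inside a region (bottom), for each ChIP library. At 6h the Mrpl and Mrps genes reach 15.4% in the top panel, beside 14.4% of genes of 10 CPM or more and 11.1% of all genes, and for H2A.Z they reach 97.1% in the bottom panel, beside 93.8 and 59.7%.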

How the data were processed

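The deposited RNA table of each library gives whole read counts by gene, not scaled by the authors, and per the labels the reads were directional and 80 bases long. The submitters' processing notes name STAR 2.5.2b, Bowtie 1.1.2, SICER 1.1, MACS2 2.1.0, Cufflinks 2.2.1 and GRCm38 (mm10), with no role for each. The authors' region lists give a score for every region, a whole number whose scale is not given in the sources used here. Their remaining value column, of the unit other, is a deposited index of the regions and was not used. Regions had a window of 200 bases and a gap of 800. The input library was not used here.

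Counts were read from column 4 (strand-specific), with rows that name no gene left out, 21.2 to 23.1% of reads. All 9 libraries entered 1 edgeR 4.0.16 fit (R 4.3.3; filterByExpr, TMM, quasi-likelihood), with Benjamini-Hochberg adjustment over 13785 genes per contrast and calls at an adjusted p below 0.05. The procedure was tested on simulated data, where at 6h against 0h, over 13785 genes, it recovered 42% of 50 genes changed 1.1-fold and 92% of 50 changed 1.25-fold. The changed genes were drawn only from genes with many counts, and no simulated library stood apart from its replicates. Recovery for genes of few counts, such as Mrps36 and Mrpl23, was not tested. Coverage and promoters were computed in Python 3.11.15 with RefSeq GRCm38.p6 tables. All 48440 gene IDs were kept, and 48058 had a symbol.

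Named genes were called genes of 1 CPM or more without overlap between the times, up to 10 increases and 5 decreases per subunit and contrast, besides the Mrps18 genes, Mrps30, Mrps36 and the 5 proteins with other symbols. Region values are named by coverage. The genes and lists were chosen with earlier results of these data known. Alternatives were RLE scaling, no filter, DESeq2 1.42.0, the libraries of 1 contrast, unstranded counts, a replicate block, single libraries left out, and other region thresholds.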

Additional observations from a re-analysis of the deposited data

Results flagged for a closer look

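By the test of 24h against 6h, levels of some of these genes differed between the 2 times. Their changes from 0h hence differed too. There was no uninduced group matched in time. For 20 of the 77 tested genes the change at 24h was lower than the change at 6h, and for 8 it was higher (edgeR, adjusted p below 0.05). The other 49 were not called. Over all genes tested, 18.8% were called lower and 17.4% higher at 24h than at 6h. With 3 libraries a group, single values were not tested for outliers.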

How the results depend on the processing

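The direction of the family held under the alternatives tried: its median log2 change was 0.13 to 0.15 at 6h, 0.076 to 0.11 at 24h and -0.062 to -0.027 from 6h to 24h. With single libraries left out, 39 to 49 genes rose and 2 to 3 fell at 6h, 10 to 21 rose and 0 fell at 24h, and 4 to 8 rose and 13 to 20 fell from 6h to 24h. Under the other settings 41 to 50 and 2 to 3, 13 to 21 and 0, and 6 to 8 and 15 to 21 genes were called. Same-numbered replicates showed little sign of deviating together (correlations -0.016 to 0.057, against -0.081 to 0.055 for differently numbered ones). Such low values cannot settle whether the numbers pair the libraries. With a replicate block, 50 genes rose and 3 fell at 6h, 21 rose and 0 fell at 24h, and 8 rose and 21 fell from 6h to 24h. Of the named calls, 21 of 25 at 6h, 8 of 17 at 24h and 12 of 18 from 6h to 24h passed under each alternative, and 0 reversed.

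For regions, a threshold of 80% of the body left 7 genes at 6h, 0 at 24h, 5 at 6h after GSK126 and 2 for H2A.Z. The 50% of regions with the higher scores left 3 at 6h, 0 at 24h and 3 at 6h after GSK126. With 1 kb trimmed at both ends, 1 gene remained for H2A.Z. The depth behind the regions is unknown and limits what a missing region means.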
